A study of Mus musculus with 33 samples.

Results

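The microRNA miR-135b was followed in the lungs of mice that had received carbon black nanoparticles. It was found by its name in the array design, mmu-miR-135b, which gave 2 probes of the 1857 on the array and 1 of its 650 microRNAs. It was chosen by its background marks and signals on these same arrays, which had shown it above background only in exposed lungs of day 28, so its values are given as a description, with no test.

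Female C57BL/6 mice, an inbred laboratory strain, received 0.162 mg of Printex 90, a carbon black of nanosized particles, by instillation into the trachea, and control mice received the vehicle alone. The vehicle, shared by all groups, was water with 0.9% NaCl and 10% acellular lavage fluid. Lungs were taken at 1, 3 or 28 days. Every control array lay at position 1 or 2 of its slide and every exposed array at position 3 or 4, so exposure and position cannot be told apart in any comparison below. Each of the 33 arrays held the RNA of 1 mouse, with 6, 6 and 6 control arrays and 6, 4 and 5 exposed arrays on days 1, 3 and 28. Replicate numbers run through the whole series. Values come from whole lung, in which fewer cells of a type and less RNA per cell cannot be told apart.

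MicroRNAs are short RNAs that bind messenger RNAs through a seed near their 5′ end and lower the output of those messages. The miR-135 family has been studied most in epithelial tumours, where miR-135 represses the message of APC, a brake on Wnt signalling. In mouse lung exposed to cigarette smoke, miR-135b has been described as induced through the interleukin-1 receptor and as repressing that receptor. These statements are background and were not measured here.

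The family shares its seed, so the hairpins are shown to let that match be seen. RefSeq (GRCm38.p6) places the Mir135b hairpin on the plus strand at chr1:132198088-132198184, where it overlaps the protein-coding gene Lemd1 and the long non-coding RNA gene Gm29695. Mir135a-1 lies on the plus strand at chr9:106154124-106154213 and Mir135a-2 on the minus strand at chr10:92072086-92072185. Capitals mark bases 2 to 8 of miR-135a-5p, its seed, and the same 7 letters wherever they occur in the hairpins.
Mir135b hairpin: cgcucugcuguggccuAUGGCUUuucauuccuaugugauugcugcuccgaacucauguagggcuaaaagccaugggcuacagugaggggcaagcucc
Mir135a-1 hairpin: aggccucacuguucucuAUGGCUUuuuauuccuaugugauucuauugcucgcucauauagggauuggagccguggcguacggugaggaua
Mir135a-2 hairpin: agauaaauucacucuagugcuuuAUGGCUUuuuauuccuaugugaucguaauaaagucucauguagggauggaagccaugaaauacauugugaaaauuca
miR-135a-5p: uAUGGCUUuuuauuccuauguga
All 3 hairpins held the seed letters once, on the 5′ side. The same letters, searched on the given strand, stood in 8 of the 1005 hairpins of the table (0.796%). Of its 1679 mature names, 1, miR-135a-5p, carried them as its seed. It held no entry for mature miR-135b-5p, so the seed of that strand could not be searched. The name miR-135b in the array design gives no arm.

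The arrays differed in overall brightness. Over the 156 probes detected on every array, the 75th percentile of signal ran from 187 to 1211 units, and between 99 and 193 of 611 mouse microRNAs were above background on an array. The processed signal is the background-subtracted brightness of a spot, in arbitrary units. Negative-control spots averaged 1.89 to 3.50 units on the 33 arrays, with an SD over spots of 1.51 to 2.35. The dimmest probe still above background on an array stood at 7.72 to 16.3 units. Precision is limited by the number of arrays. An array was taken to show a microRNA above background when over 50% of the unflagged spots of any of its probes were marked well above background by the scanner software.

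By that rule miR-135b was above background on 3 of the 5 exposed arrays of day 28 and on 0 of the 28 arrays of the other 5 groups. The brighter probe, A_54_P2590, read 37.5 ± 4.58 units in exposed replicate 8 of day 28 (mean ± SD over 10 spots). In replicate 23 it read 13.9 ± 2.76, and in replicate 30 it read 14.2 ± 2.27. These means were only 1.20 and 1.32 times the dimmest signal still above background on their own arrays, against 3.73 times in replicate 8. In replicates 12 and 20 the probe read 1.22 ± 1.36 (9 spots) and 2.71 ± 2.04, which lies within or below the range of negative-control means. Of its spots, 10 of 10, 8 of 10 and 9 of 10 were well above background in replicates 8, 23 and 30, and 0 in replicates 12 and 20.

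The dimmer probe, A_54_P2589, ordered the same arrays in nearly the same way. It read 20.4 ± 1.51 units in replicate 8, where all 9 spots used were well above background. In replicates 23 and 30 it read 7.87 ± 1.88 and 7.38 ± 1.48. There all 10 spots were positive and significant against local background on each array, the scanner software's weaker mark, and 0 were well above background. It stood at 0.452 in replicate 12 and 1.69 in replicate 20. Thus the call in replicates 23 and 30 rests on probe A_54_P2590, while in replicate 8 both probes gave it. The spots of a probe share an array and are not replicates of the exposure.

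**Figure D1:**
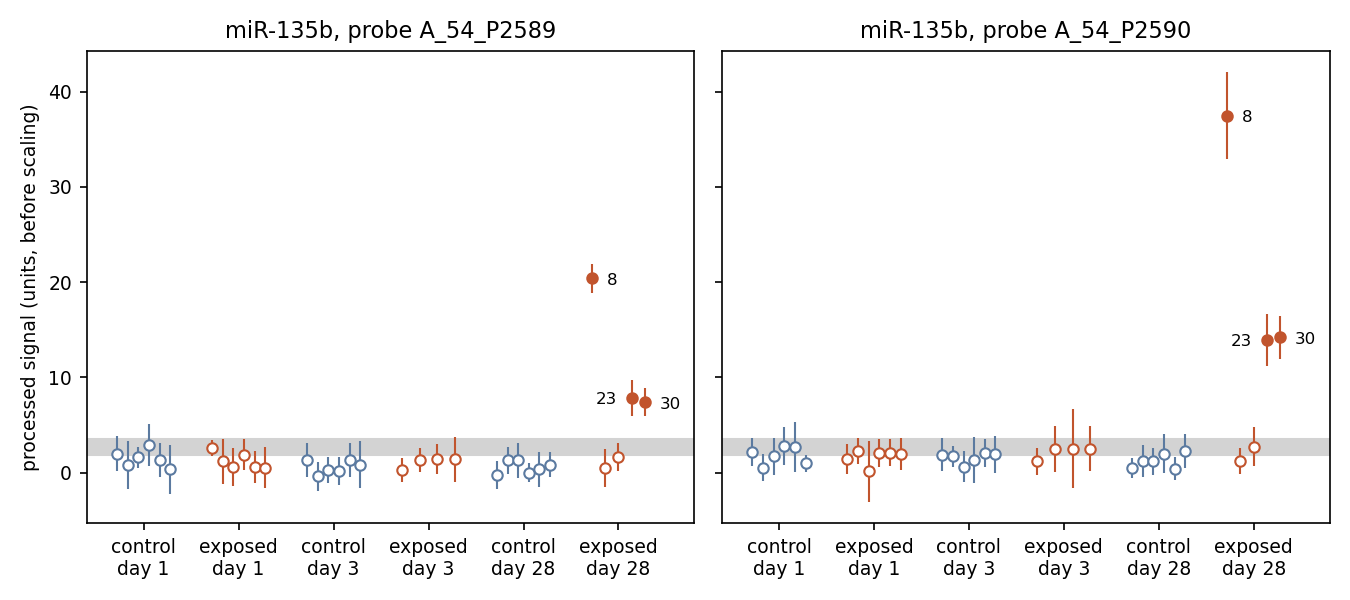
Processed signal of both miR-135b probes on each of the 33 arrays, in units before scaling, with the SD over spots; filled points are arrays above background, and the grey band is the range of negative-control means, 1.89 to 3.50 units. Only exposed replicates 8, 23 and 30 of day 28 stand clear of the band.

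In the other 5 groups, both probes stayed near the level of the negative controls. Probe A_54_P2590 had a lowest, median and highest mean of 0.538, 1.95 and 2.80 units in controls of day 1, and of 0.137, 2.02 and 2.29 in exposed lungs of that day. At day 3 these were 0.604, 1.80 and 2.05 units in controls. The 4 exposed arrays of day 3 read 1.20, 2.48, 2.51 and 2.52 units. In controls of day 28 the lowest, median and highest were 0.418, 1.20 and 2.31 units. The groups therefore overlapped at days 1 and 3, and at day 28 replicate 12 of the exposed lungs lay inside the control range. Over these 28 arrays 0 of 263 spots of A_54_P2590 and 0 of 269 spots of A_54_P2589 were well above background, and the brightest spots read 8.91 and 7.47 units.

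Ordered by the mean of A_54_P2590, the groups ran from exposed day 28 at 13.9 ± 14.5 units (SD, n = 5) through exposed day 3 at 2.18 ± 0.655 (n = 4) and control day 1 at 1.82 ± 0.924 (n = 6). Below these came exposed day 1 at 1.67 ± 0.800 (n = 6), control day 3 at 1.58 ± 0.541 (n = 6) and control day 28 at 1.26 ± 0.774 (n = 6). No neighbours in this order differed by more than the larger of their SDs, the first step included, because the SD of the exposed day 28 group exceeded its mean. Probe A_54_P2589 kept exposed day 28 first, at 7.56 ± 7.91 units. It put control day 1 next at 1.50 ± 0.901, then exposed day 1 at 1.22 ± 0.850 and exposed day 3 at 1.11 ± 0.567. Control day 3 at 0.603 ± 0.688 and control day 28 at 0.595 ± 0.646 came last.

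To compare arrays of unequal brightness, each signal was divided by a factor that made the 75th percentile equal, values under 1 were raised to 1, and the log2 was taken. On this scale miR-135b, read by its brighter probe, stood at 4.43, 0.68, 1.91, 4.29 and 3.50 in exposed replicates 8, 12, 20, 23 and 30 of day 28. The controls of that day lay between 0 and 0.26, below all 5 exposed arrays. Before scaling, replicate 12 lay inside the control range, at 1.22 units against 0.418 to 2.31, all below background. The scaling divided by 0.765 in replicate 12 and by 1.01 to 1.93 in these controls, so this order depends on it. On the log2 scale the group means were 2.96 ± 1.62 (SD, n = 5) and 0.09 ± 0.13 (n = 6). Since no control array of day 28 was above background, the control level is only bounded, and the exposed mean stood 1.13-fold above that bound. Exposed replicates 12 and 20, themselves below background, are in that mean at their own values. The 1.13-fold is therefore no lower limit for exposed lungs as a group. Without replicate 8 or without replicate 23 the exposed mean, 2.59 or 2.63, fell under the bound and no fold could be given. Without replicate 12 the exposed mean, replicate 20 still included, stood 1.67-fold above the bound. The bound is the mean, over the control arrays, of the dimmest signal that still counted as above background. The probe's own signal was taken where higher, and the bound was 2.79 on the log2 scale. No fold is given for days 1 and 3, where both groups were below background on all arrays.

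On the same scaled values controls of day 1 spread from 0 to 2.28, and the highest was above exposed replicates 12 and 20 of day 28. Exposed lungs of day 1 lay at 0 to 1.26, controls of day 3 at 0 to 1.88 and exposed lungs of day 3 at 0 to 1.70. All these arrays were below background, and on a dim array the scaling multiplies such a signal. The 6 controls of day 1 had a 75th percentile of 187 to 985 units before scaling.

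How far the 3 arrays above background differed among themselves depended on the scaling. Before scaling, replicate 8 was 2.69-fold brighter than replicate 23 and 2.64-fold brighter than replicate 30 in A_54_P2590, and 2.59-fold and 2.76-fold brighter in A_54_P2589. After scaling these ratios were 1.10 and 1.90 in A_54_P2590 and 1.06 and 1.99 in A_54_P2589. Replicate 8 was the brightest exposed array of day 28, with a 75th percentile of 1095 units. The others stood at 481, 454, 448 and 787 units in replicates 12, 20, 23 and 30. The controls of day 28 were brighter on average, at 633 to 1211 units (mean 956 ± 215, n = 6), with 141 to 187 microRNAs above background, against 193, 131, 126, 138 and 167 in exposed replicates 8, 12, 20, 23 and 30.

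**Figure D2:**
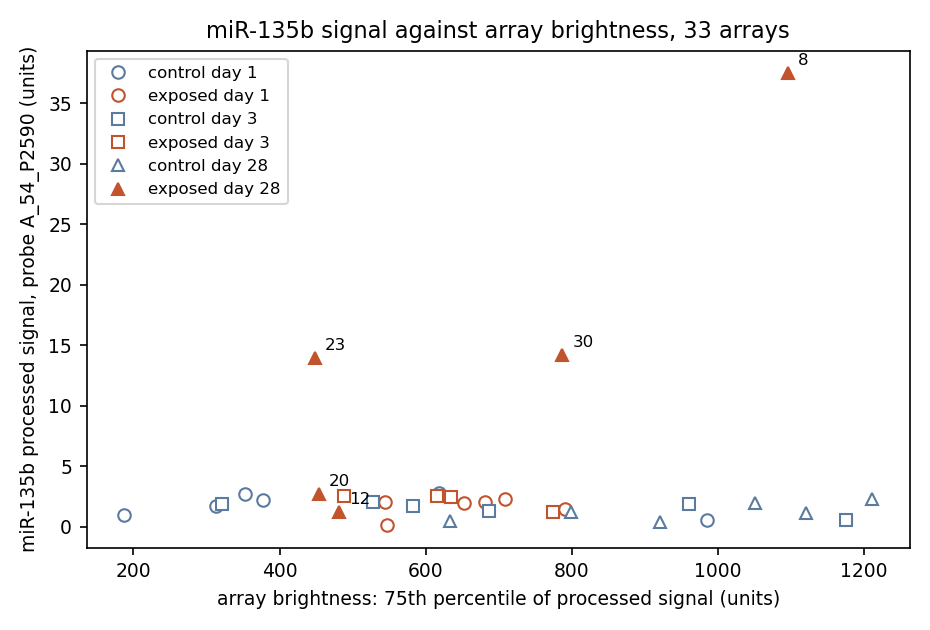
Processed signal of miR-135b probe A_54_P2590 against array brightness, the 75th percentile of processed signal over probes detected on every array, both in units, for 33 arrays; numbers name the exposed replicates of day 28. Replicates 12, 20 and 23 had similar brightness, 448 to 481 units, and only replicate 23 was above background, at 13.9 units.

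The arrays were spread over 9 slides and 5 scan days. The 3 arrays above background lay on slides 2, 6 and 8 and were scanned on 3 days. Each exposed array of day 28 shared its slide with a control of that day. On slide 2, A_54_P2590 read 37.5 units in exposed replicate 8 and 0.454 in control replicate 6. On slide 6 exposed replicate 23 read 13.9 and control replicate 22 read 1.99, and on slide 8 exposed replicate 30 read 14.2 and control replicate 28 read 0.418. The pairs on slides 3 and 5 were close, at 1.22 against 1.21 and at 2.71 against 1.18.

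Within slides the exposed array was the brighter in 5 of 5 pairs of day 28 for A_54_P2590 and in 4 of 5 for A_54_P2589. At day 3 this held in 3 of 4 pairs for each probe, and at day 1 in 2 of 6 and 3 of 6, all below background. All 5 exposed arrays of day 28 lay at position 4 and all 6 controls of that day at position 2, so these pairs differ in position as well as in exposure. The 2 other arrays at position 4, exposed replicates 4 and 16 of day 3, read 1.20 and 2.52 units and were below background.

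**Figure D3:**
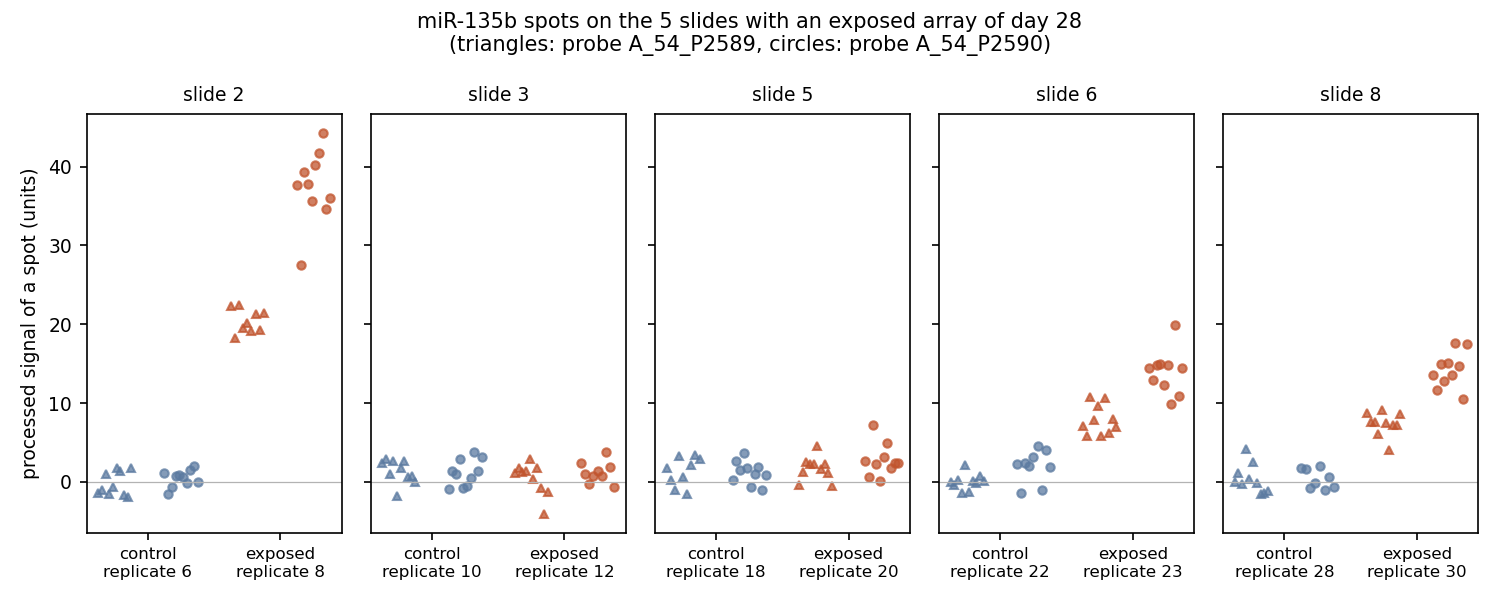
Processed signal, in units, of each unflagged spot of miR-135b on the 5 slides that held an exposed array of day 28, with the control of day 28 from the same slide; triangles are A_54_P2589 and circles A_54_P2590. Spots of exposed replicate 8 in A_54_P2590 ran from 27.5 to 44.3 units, those of replicate 23 from 9.93 to 20.0 and those of replicate 30 from 10.5 to 17.6.

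Other readouts of the same arrays set the same 3 apart, except the weaker mark, which took in others as well. These arrays chose miR-135b, so the readouts add no separate support. The scanner software's total gene signal for miR-135b, its own summary over probes, was 38.7, 14.6 and 14.3 units in replicates 8, 23 and 30, and stood at its floor of 0.1 on the other 30 arrays. The series table deposited by the authors gave log2 values of 5.99, 5.74 and 5.67 for these arrays and 5.40 to 5.53 for the other 30. In the authors' table the difference of means at day 28 was 0.25 on the log2 scale. With the weaker mark, positive and significant against local background, miR-135b counted as present also on 3 control arrays of day 1, 2 exposed arrays of day 1 and 2 exposed arrays of day 3, with 3 in exposed lungs of day 28 and 0 in controls of days 3 and 28.

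The relatives of miR-135b were above background on none of the 33 arrays. miR-135a, which has 2 probes, was above background on 0 of 33 arrays, with probe means of -0.16 to 2.50 units for A_54_P1066 and -0.65 to 2.20 for A_54_P4370. In exposed replicates 8, 23 and 30 of day 28, probe A_54_P1066 read 0.779, 1.82 and 1.30 units, where A_54_P2590 of miR-135b read 37.5, 13.9 and 14.2. The strand named miR-135a*, with 4 probes, was also above background on 0 arrays, and its probe means reached 8.07 units at most, with 3 of 162 spots of its brightest probe, A_54_P3300, well above background. Levels cannot be set against each other between probes, so these values show only that the miR-135a probes stayed at background where those of miR-135b did not.

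Appearance above background in at least 3 exposed arrays and 0 control arrays of day 28 was rare, at 0.164% of 611 mouse microRNAs, which is miR-135b alone. Because this pattern chose it, nothing is read from that share. The reverse, at least 3 control and 0 exposed arrays, was met by miR-133a and miR-133b, microRNAs of heart and skeletal muscle, at 4 and 0 arrays each (0.327%). At day 1 the exposed pattern was met by miR-155, miR-17* and miR-222 on 4, 5 and 4 of 6 exposed arrays (0.491%), and at day 3 by none (0%). Exposed arrays of day 1 were brighter on average than controls of that day. Their mean 75th percentile was 654 ± 95.6 units (SD), against 472 ± 288 in those controls. Whether array brightness had a part in the day 1 pattern was not tested. Above background on any exposed array of day 28 and on no array of the other groups were 8 microRNAs (1.31%), of which the 7 others were so on 1 array each.

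The tested microRNAs with values most like those of miR-135b were found by Pearson's r of the log2 scaled signal over the 33 arrays. These were miR-21, with r = 0.75, miR-146b with 0.74, miR-146a with 0.70, miR-155 with 0.51 and miR-207 with 0.50. Spearman's rho was 0.65, 0.47, 0.38, 0.28 and 0.64 in the same order. The values share arrays and scaling, and 30 of 33 miR-135b values are below background, so r is a description and carries no p. Without replicates 8 and 23, the farthest from the median of miR-135b, r over 31 arrays was 0.55, 0.46, 0.39, 0.23 and 0.55. Within the 18 control arrays, all below background for miR-135b, r was 0.70, -0.04, -0.04, -0.10 and 0.61, and within the 15 exposed arrays it was 0.73, 0.87, 0.91, 0.60 and 0.64. These values depend on the scaling: with the percentile taken over all probes, r over the 33 arrays was 0.55, 0.60, 0.36, 0.34 and 0.27 in the same order. With that scaling r within controls was 0.08, -0.38, -0.42, -0.25 and 0.26.

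miR-21, which is raised in many injured and fibrotic tissues, stood at 13.01, 11.57, 12.28, 13.50 and 12.25 (log2 scaled signal) in exposed replicates 8, 12, 20, 23 and 30 of day 28. Controls of that day lay between 11.55 and 11.83, so 4 of the 5 exposed arrays were above the highest control and replicate 12 was not. miR-146b, of a family described as a brake on NF-kB signalling, read 8.11, 5.49, 6.06, 7.97 and 6.96 in the same order, against 5.59 to 5.97 in controls. Again 4 of 5 exposed arrays were above the controls, and replicate 12 was below them. miR-146a, its close relative with the same known role, read 9.23, 7.92, 8.17, 9.27 and 8.83, against 8.03 to 8.36. For miR-146a the 3 arrays above the controls were those on which miR-135b was above background.

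miR-155, which activated macrophages and lymphocytes induce, read 4.38, 1.92, 4.46, 4.55 and 3.72 in exposed replicates 8, 12, 20, 23 and 30 of day 28, against 2.87 to 3.21 in controls. Replicate 20, with miR-135b at background, had a value of miR-155 between those of replicates 8 and 23. miR-207 read 3.60, 2.61, 3.57, 3.80 and 3.71, against 2.41 to 3.44 in controls. At day 28 miR-155 was above background on 4 exposed and 4 control arrays, and miR-207 on 2 exposed and 5 control arrays. Values of both below background are thus part of these ranges and of their r. miR-223, which is abundant in neutrophils, read 8.33, 7.98, 8.56, 8.38 and 7.78, all within the control range of 7.68 to 8.73.

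**Figure D4:**
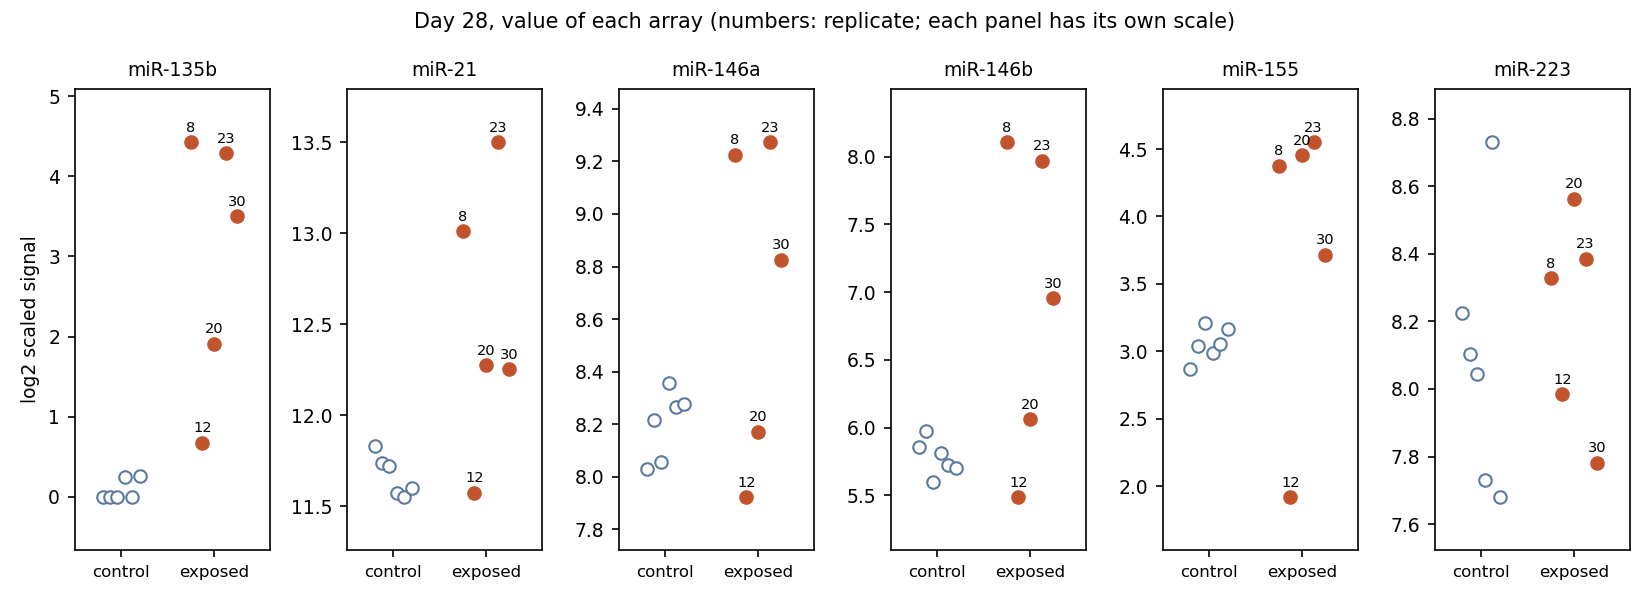
Log2 scaled signal of miR-135b and 5 reference microRNAs of inflammation on each array of day 28, controls open and exposed filled, with replicate numbers and a scale of its own in each panel. Replicates 8 and 23 are the highest exposed arrays of miR-135b, miR-21, miR-146a and miR-146b, and all 5 exposed values of miR-223 lie within the control range of 7.68 to 8.73.

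The tests available are those of the other microRNAs, fitted with limma over all 172 that were above background on at least 4 arrays of a group. miR-135b was not among them. On each of the 3 days 0 of 172 passed an adjusted p of 0.05 (0%). At an unadjusted p under 0.05, 9 were higher and 7 lower at day 1. The day 3 counts were 2 and 0, and those of day 28 were 9 and 4. At day 28 the log2 difference, exposed minus control, was 0.85 ± 0.23 (SE) for miR-21 (limma adjusted p = 0.157) and 1.14 ± 0.34 for miR-146b (limma adjusted p = 0.166). It was 0.48 ± 0.18 for miR-146a and 0.75 ± 0.31 for miR-155 (limma adjusted p = 0.570 for each). For miR-207 and miR-223 it was 0.30 ± 0.26 and 0.12 ± 0.22 (limma adjusted p = 0.919 and 0.985).

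Exposed replicate 12 of day 28 weighed on these results. Without it, 4 of 172 microRNAs rose at day 28 in limma, namely miR-155 by 1.22 (adjusted p = 0.00100), miR-21 by 1.09 (0.00205), miR-146b by 1.50 (0.00230) and miR-146a by 0.67 (0.0201). With it, none did. The array was at background for miR-135b and had a 75th percentile of 481 units, close to those of replicates 20 and 23. It is kept in all other values given.

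At the earlier days the same microRNAs did not pass the test either. The day 1 and day 3 differences of miR-21 were 0.41 ± 0.22 and 0.27 ± 0.25 (limma adjusted p = 0.487 and 0.996). For miR-146b the differences were 0.33 ± 0.32 and 0.27 ± 0.36 (limma adjusted p = 0.632 and 0.996), and for miR-146a -0.06 ± 0.17 and -0.08 ± 0.20 (0.862 and 0.996). miR-223 differed by 0.82 ± 0.21 at day 1 (limma adjusted p = 0.0994), and it passed the threshold there under 6 of 14 other settings, at adjusted p-values of 0.00302 to 0.0473. miR-155 was above background on 4 of 6 exposed and 0 of 6 control arrays of day 1, with mean log2 scaled signals of 3.61 and 2.68, and the bound on the controls allowed no fold (limma adjusted p = 0.212). It passed the threshold at day 1 under 4 of 14 other settings, at adjusted p-values of 0.0175 to 0.0252. At day 3 miR-155 was above background on 0 of 4 exposed and 1 of 6 control arrays, and no fold is given. The change of day 28 minus that of day 1 was 0.54 ± 0.25 for miR-146a, 0.81 ± 0.46 for miR-146b and 0.45 ± 0.32 for miR-21, with limma adjusted p-values of 0.572, 0.733 and 0.925.

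Of the 9 listed microRNAs induced in inflammation 4 were tested, those just described except miR-223 and miR-207, and the other 5 were above background on no array. None passed the test on any day, and the median log2 difference at day 28 was 0.80, beside -0.03 over all 172. Their summed level, as log2, was 13.16, 11.71, 12.38, 13.61 and 12.42 in exposed replicates 8, 12, 20, 23 and 30, against 11.72 to 11.95 in controls. It was above all controls on 4 of 5 exposed arrays. The lists were drawn up with earlier results of these data known.

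Markers of cell types were examined on the same arrays, and 0 of their tested members rose or fell on any day (0% of 172 for each day). Of 8 epithelial microRNAs 7 were tested and 5 were above background on every array, miR-200a and miR-200b differing by 0.02 ± 0.12 and -0.13 ± 0.11 at day 28. The labelled tissue thus carried these 5 throughout, while miR-203 and miR-375 were above background on part of the arrays and miR-205 on none. At day 28 miR-375 was above background on 6 control and 1 exposed arrays, with a log2 difference of -0.72. For miR-203 these were 5 and 2 arrays, with a difference of -0.04. The summed log2 level of the 7 tested was 10.26, 10.12, 10.06, 10.55 and 10.38 in exposed replicates 8, 12, 20, 23 and 30, against 10.13 to 10.49 in controls. All 3 myeloid microRNAs were tested, with a median of 0.15. Their summed level was 10.75, 9.96, 11.03, 10.82 and 10.06, against 10.04 to 10.60, so replicates 8, 20 and 23 were above the controls. Whether myeloid cells had a part in the miR-135b signal was not tested.

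Heart and skeletal muscle microRNAs stood lower on most exposed arrays of day 28. Of 7 listed 3 were tested, with a median log2 difference of -1.35 between fitted means, or -0.66 with bounded members at their bound, and none past the threshold. The other 4 were above background on no array. miR-1 differed by -1.55 ± 0.79 (limma adjusted p = 0.633). miR-133a, above background on 4 control and 0 exposed arrays, had means of 1.97 in exposed lungs and 3.20 in controls, and its bound allowed no fold (limma adjusted p = 0.864). Their list's summed level was 4.79, 4.88, 6.27, 4.79 and 4.95 in replicates 8, 12, 20, 23 and 30, against 5.09 to 8.00 in controls, below all controls on 4 of 5 arrays. The 3 erythroid microRNAs had a median of -0.20, with miR-144 at -0.25 ± 0.24 and miR-451 at -0.20 ± 0.22. Their summed level was 12.32, 12.81, 13.10, 11.52 and 12.28, against 12.36 to 12.92, and lay below the controls in replicates 8, 23 and 30. The part of muscle or blood RNA in the miR-135b signal was not tested.

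None of the remaining lists had a member past the test at day 28. The ciliated markers, 3 tested of 7, had a median of -0.21, with miR-34b-5p at -0.21 ± 0.33 and miR-34c at -0.20 ± 0.32. The lymphoid markers, 3 of 4, had a median of 0.08, with miR-181a at 0.08 ± 0.19 and miR-181b at 0.01 ± 0.13. Their summed level was above all controls in replicates 23 and 30, at 7.37 and 7.26 against at most 7.25. It was below all controls in replicate 12, at 6.70 against at least 6.81. The 2 endothelial members, miR-126-3p and miR-126-5p, stood at -0.19 ± 0.10 and 0.25 ± 0.65, and their summed level was below all controls on 3 of 5 exposed arrays. Fibroblast markers, 3 of 3, had a median of 0.02, with miR-199a-3p at -0.18 ± 0.15 and miR-199a-5p at 0.05 ± 0.14, and a summed level below all controls on 3 of 5 exposed arrays. miR-143 of smooth muscle differed by 0.02 ± 0.29 and miR-122 of liver by 0.28 ± 1.27. None of the 4 brain microRNAs was tested.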

How the data were processed

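MicroRNA of whole mouse lung was measured on 33 one-colour Agilent arrays, 1 mouse each. RNA enriched for small RNA with a miRvana kit was labelled with Cy3, per the labels' protocols. Spot intensity in the deposited scanner files is linear and comes from Feature Extraction 10.7.3.1, background-subtracted, per the file headers. The authors' deposited series table gives log2 values. Their scaling and centring are not stated in any source used.

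From these files, spots with outlier flags (2.30%) were left out and the rest averaged per probe, scaled by the 75th percentile over 156 probes detected on all arrays, raised to 1 where lower and converted to log2. No spot was saturated. The brightest probe stood for a microRNA. Those above background on at least 4 arrays of a group, 172, entered 1 limma 3.58.1 model of 6 group means (lmFit, eBayes with trend, R 4.3.3, two-sided, Benjamini-Hochberg 0.05), tested on simulated data. Replicates are separate mice.

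The microRNAs named are the miR-135 family, the 5 most like miR-135b by r, 5 reference microRNAs of inflammation and the first 2 tested members of each list, plus those counted in the detection patterns, which were named after their values were seen. Members and lists were chosen with earlier results of these data known. Alternatives were normexp (offset 50, on median signals, since the files used here give no mean signal), total gene signal, quantile and other scalings, the authors' table, probe and floor rules, filters, slide terms, variance without trend, other background marks and leaving out each array.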

Additional observations from a re-analysis of the deposited data

Results flagged for a closer look

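In 54 groups of 4 to 6 arrays, 7 values lay far from the rest of their group by Dixon's ratio of the gap to the nearest array over the whole range; chance gives about 1 in 20. For miR-135b these were the exposed replicate 4 of day 3, lowest at 0.262 units in A_54_P2589 (nearest 1.36, ratio 0.929) and at 1.20 in A_54_P2590 (nearest 2.48, ratio 0.967), all below background. No miR-135b value of the exposed day 28 group was far enough from its neighbour to be marked.

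For the other microRNAs, in log2 scaled signal, miR-21 was high in control replicate 2 of day 3 (12.40, nearest 11.80, ratio 0.679), and miR-155 was low in exposed replicate 3 of day 1 (2.80, nearest 3.51, ratio 0.627). miR-207 was low in control replicate 6 of day 28 (2.41, nearest 3.19, ratio 0.759) and in exposed replicate 12 of day 28 (2.61, nearest 3.57, ratio 0.803). miR-223 was high in control replicate 13 of day 1 (8.77, nearest 8.27, ratio 0.679).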

How the results depend on the processing

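The log2 difference of miR-135b at day 28, 2.88 between fitted means, is no fold, since all controls were below background. It was 0.82 with normexp, 0.45 with a floor of 10 and 0.25 in the authors' table, and 2.16 to 2.88 under 13 other settings; leaving out each array gave 2.51 to 3.45. Arrays above background were the same if any spot sufficed. With the weaker mark they were 3 in controls of day 1, 2 in exposed lungs of day 1 and 2 of day 3, and unchanged in the other 3 groups. Of the 5 microRNAs most like miR-135b, 4 were shared with the percentile over all probes and 4 with the authors' table.

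At day 28, 0 microRNAs passed the limma threshold. The count was 1 with normexp (miR-146b), quantile normalization (miR-21), a floor of 10 (miR-155) and without slide 1 (miR-21). Without the filter it was 1, miR-135b itself. Because miR-135b was chosen for this pattern, that call is not read as a result. The count was 0 to 4 leaving out each array, with 4 without exposed replicate 12 of day 28. At day 1 it was 3 with total gene signal, 4 with quantile normalization, 3 with the percentile over all probes, 6 without scaling, 2 with the mean over probes, 3 without the filter, 1 over microRNAs above background on all arrays, 2 with slide as a random block and 2 without slide 1. Among these day 1 calls, miR-223 was named under 6 of 14 settings, miR-222 under 5 and miR-155 under 4. Leaving out each array of any group gave 0 to 2 at day 1, with calls without exposed replicate 3 or control replicate 13 of day 1, control replicate 25 of day 3 or exposed replicate 12 of day 28. At day 3 it was 1 without slide 1 (miR-689) and 0 leaving out each array. The causes were not tested. By replicate number no paired analysis was possible because the numbers run through the series and no 2 groups share one. Slides do pair exposed and control arrays of a day: the miR-135b difference was 2.86 with slide as a fixed block and 2.87 with a random one, and 0 microRNAs passed at days 3 and 28 under either. A signal below background limits miR-135b to a bound in 5 of 6 groups.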
